A study of Mus musculus with 38 samples.

Results

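The 3008 regions described here were open, in the sense of carrying an ATAC-seq peak, in both libraries of visceral adipose lineage cells taken after 12 weeks of high-fat diet and in none of the other 7 libraries. They were found by merging the deposited peaks of chromosomes 1 to 19, X and Y from all 9 libraries into 123130 union regions (peaks joined by an overlap of at least 1 bp) and keeping those with that pattern. They made up 2.44% of the union regions and 4.63% of the 65016 regions with a peak in both 12-week lists. Because they were chosen by the presence of peaks in these lists, their peak values are given below as a description and no test was run on them.

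The study concerns Tcf21, a transcription factor of visceral fat progenitors, and profiled sorted Tcf21 lineage cells of mouse adipose tissue, 5000 cells per library. The ATAC-seq groups were wild type (WT) at 3 weeks of age (3W, 3 libraries), knockout of Tcf21 (KO) at 3W (2 libraries), and WT after 1 week (1W HFD, 2 libraries) or 12 weeks (12W HFD, 2 libraries) of high-fat diet begun at 6 weeks of age. RNA-seq of WT cells had 2 libraries at postnatal day 12 (P12), 7 at 3W, 4 at 1W HFD, 5 at 12W HFD and 2 at 6 months (6M), and that of KO cells had 5 at 3W, 2 at 1W HFD and 2 at 12W HFD. P12, 3W and 6M animals ate regular diet. Genotypes are those of the sample titles, which the separate genotype field contradicts in 22 of all 38 libraries. All groups, WT included, carry a label of tamoxifen to activate the inducible recombinase MerCreMer, at 75 mg per kg per day for adults by gavage or 100 µg per day for neonates, and the labels do not name the promoter that drives it. No library of regular-diet cells at the age of the 12W HFD group was analysed here, so diet time and age cannot be told apart. Whether replicates are separate animals is not stated, so p-values measure the spread between libraries.

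ATAC-seq uses the Tn5 transposase to cut and tag DNA that is not covered by nucleosomes, so its peaks mark promoters and enhancers that a factor can reach. Many promoters with dense CpG are open in nearly all cells, while enhancers and CpG-poor promoters are more often open in particular cell types. In fat of obese mice, macrophages and other leukocytes are known to accumulate among the stromal cells, and many of their genes depend on the ETS factor PU.1, on RUNX factors and on AP-1.

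The promoters of 5 genes near their start show what some of these regions hold. They were picked, after the motif search, from promoters that hold a match, that one of the 3008 regions overlaps and whose gene had higher mRNA after 12W HFD than at 3W. Of 37 genes with such a region and higher mRNA, 19 held a match in these bases, and the others, such as C5ar1, Dock2, Plek and Ccl3, held none. The share of all promoters with any such match was not computed, so this count is not read as a result about the regions. Shares of single motifs over all promoters are given below. The lines give the 250 bases upstream of the start, 5′ to 3′ on the strand of the gene, from RefSeq (GRCm38.p6, which has the coordinates of mm10). Capitals mark matches on either strand to PU.1 (GAGGAAGT), AP-1 (TGANTCA), RUNX (TGTGGTT) or CEBP (TTGCNNAA).
Hpgds, chr6:65144731-65144980, minus strand: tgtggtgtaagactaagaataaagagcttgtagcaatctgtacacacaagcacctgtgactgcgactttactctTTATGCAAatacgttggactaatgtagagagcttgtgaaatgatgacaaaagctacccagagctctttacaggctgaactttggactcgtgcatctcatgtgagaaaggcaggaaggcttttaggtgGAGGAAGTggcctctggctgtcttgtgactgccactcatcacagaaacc
Arhgap25, chr6:87533260-87533509, minus strand: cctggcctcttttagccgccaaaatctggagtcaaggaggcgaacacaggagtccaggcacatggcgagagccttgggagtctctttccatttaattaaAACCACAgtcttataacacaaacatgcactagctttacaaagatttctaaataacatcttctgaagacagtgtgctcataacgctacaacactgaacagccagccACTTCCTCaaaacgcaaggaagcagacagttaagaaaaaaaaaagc
Fcgr4, chr1:171018676-171018925, plus strand: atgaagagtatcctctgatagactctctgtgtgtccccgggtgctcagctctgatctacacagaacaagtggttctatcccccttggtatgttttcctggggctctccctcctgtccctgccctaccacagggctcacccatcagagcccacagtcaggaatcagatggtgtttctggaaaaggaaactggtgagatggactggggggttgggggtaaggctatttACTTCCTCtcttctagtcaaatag
C3ar1, chr6:122856158-122856407, minus strand: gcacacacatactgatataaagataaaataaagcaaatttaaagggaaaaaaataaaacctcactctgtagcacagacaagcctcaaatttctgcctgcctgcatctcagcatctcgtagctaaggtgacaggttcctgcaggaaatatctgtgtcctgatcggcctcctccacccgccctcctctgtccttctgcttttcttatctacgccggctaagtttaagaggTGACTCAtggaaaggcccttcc
Tbxas1, chr6:38918736-38918985, plus strand: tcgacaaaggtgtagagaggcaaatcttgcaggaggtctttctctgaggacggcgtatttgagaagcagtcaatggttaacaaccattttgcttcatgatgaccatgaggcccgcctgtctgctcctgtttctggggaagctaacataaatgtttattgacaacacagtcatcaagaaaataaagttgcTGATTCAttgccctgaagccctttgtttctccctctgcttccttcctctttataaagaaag
Hpgds makes prostaglandin D2 and its promoter held a PU.1 and a CEBP match. Arhgap25, a GTPase-activating protein of leukocytes, held a PU.1 and a RUNX match. Fcgr4, an activating receptor for IgG, held 1 PU.1 match. C3ar1, the receptor for the complement fragment C3a, and Tbxas1, which makes thromboxane, held 1 AP-1 match each.

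One region lay over a microRNA gene known for its expression in blood cells. It ran from chr11:87755569-87757391 (mm10), with a fold enrichment over background of 5.24 in 12W HFD replicate 1 and 4.22 in replicate 2, and covered the hairpins Mir142 and Mir142b, which lie on opposite strands. Their mature RNAs have different seeds, shown in capitals (bases 2 to 8).
mmu-miR-142a-5p: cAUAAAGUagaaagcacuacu
mmu-miR-142a-3p: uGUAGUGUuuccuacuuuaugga
mmu-miR-142b: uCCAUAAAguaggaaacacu
A further region covered the hairpin of miR-1271 (chr13:54577681-54579273), and others lay within 2 kb of Mir146b and Mir7681. MicroRNA levels were not analysed here.

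In both 12W HFD lists the regions were weak peaks. Their median fold enrichment was 4.26 in replicate 1, where all peaks had a median of 7.21, and 3.98 in replicate 2, where all peaks had a median of 6.56. The highest values were 19.3 and 18.3. Ranked by q-value, the median region stood at 76.9% of the way down list 1 and 73.7% down list 2, and 118 of the 3008 were in the stronger part (top 50%) of both. A fold of at least 5 in both lists was reached by 439 regions and a fold of at least 10 by 18. The 2 summits of a region lay within 200 bp of each other in 1989 regions (66.1%). The regions were also narrow, with a median width of 956 bp (422 to 4251 bp) against 2865 bp for the 35747 regions with a peak in every library.

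**Figure D1:**
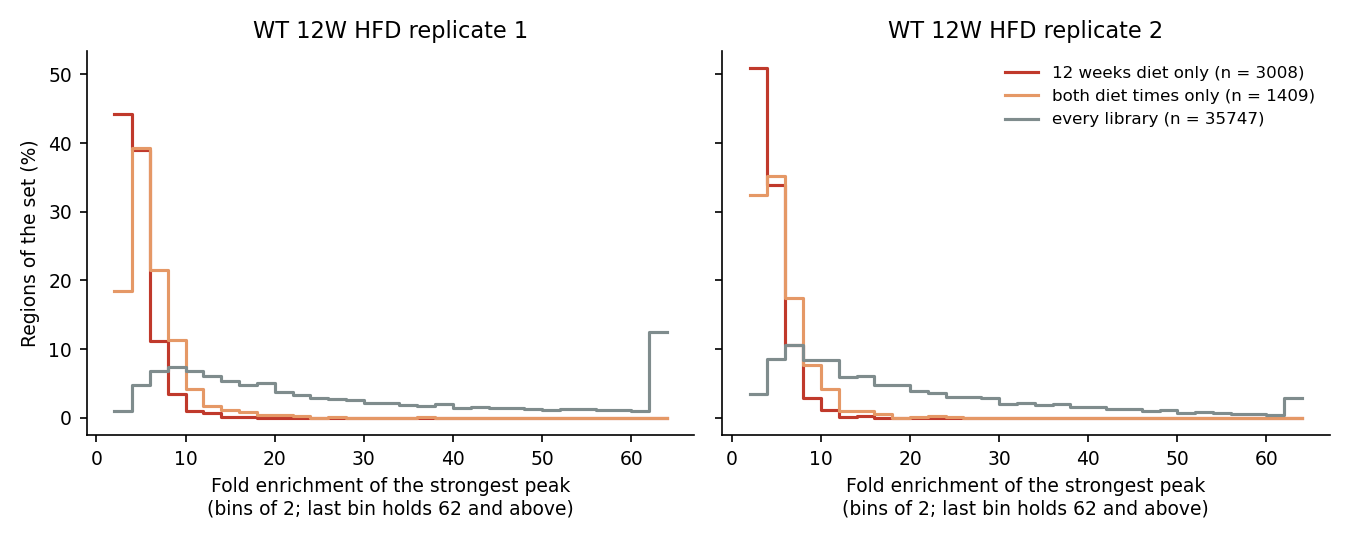
Share of regions (y axis, percent of the set) by fold enrichment of the strongest peak (x axis, bins of 2, last bin open) in each 12W HFD list, for regions of 12W HFD only, of both diet times only and of every library. The 12W HFD regions crowd at the low end, with medians of 4.26 and 3.98, where regions of every library have medians of 20.98 and 15.5.

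The rule turns on whether a peak was called, so regions just inside and just outside it differ little. The weakest members had a fold of 2.34 in replicate 2, such as chr1:125647847-125648412 near Gpr39 (4.59 in replicate 1). Just outside were 2634 regions with a peak in both 12W HFD lists and in 1 other, in which the median fold in that other list was 3.73 (lowest 2.33). That other list was a 1W HFD list in 1144 and 504 of them, a KO 3W list in 516 and 283, and a WT 3W list in 127, 26 and 34. Regions with a peak in only 1 of the 12W HFD lists numbered 4322 for replicate 1 and 5515 for replicate 2. The lists held 55990 to 93314 peaks, and the 12W HFD lists held 93314 and 82580. The lists of 1W HFD replicate 1 (85959 peaks) and KO 3W replicate 1 (84876 peaks) were longer than that of 12W HFD replicate 2. With every list kept to its strongest peaks, as many as the shortest list holds, 1317 regions met the rule.

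Most regions lay away from gene starts. Of the 2898 regions on chromosomes with a listed start, 65 (2.24%) had their summit within 1 kb of one, 336 at 1 to 10 kb, 1438 at 10 to 100 kb and 1059 beyond 100 kb. The share within 1 kb was 9.03% over all union regions, 26.6% for regions of every library, 1.76% for regions of both diet times only and 1.34% for regions of 1W HFD only. The summit lay inside a protein-coding gene in 46.4% of regions, against 57.1% of all union regions. The 110 regions on chromosome 18 have no start in the table used and were assigned to no gene. Another region of the set lay within 10 kb for 332 of the 3008.

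**Figure D2:**
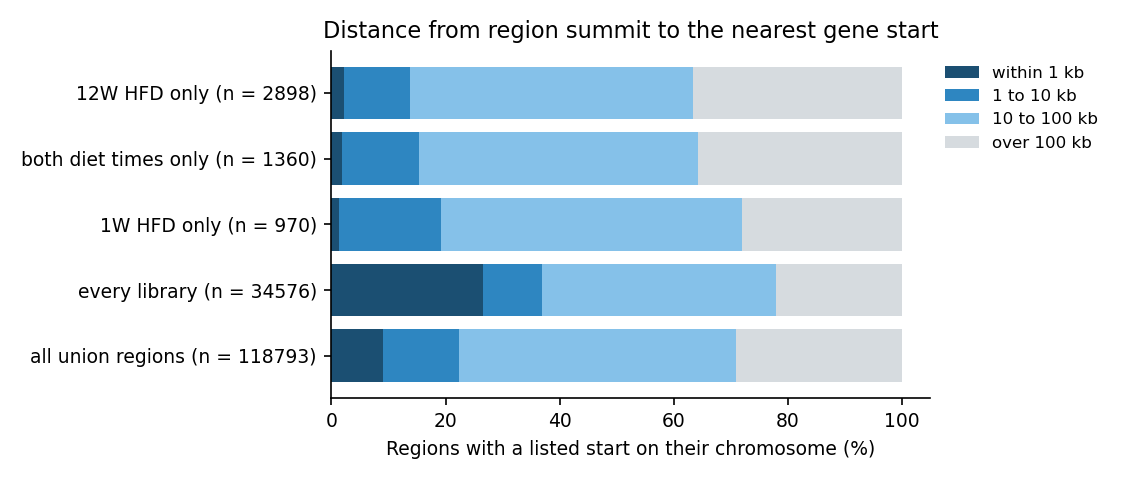
Stacked bars give, for 5 sets of regions, the percent of regions whose summit lies in each class of distance to the nearest listed gene start. The bar of 12W HFD only has 2.24% within 1 kb and 36.5% beyond 100 kb, and the bar of every library has 26.6% within 1 kb.

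Promoters opened in this pattern had fewer CpG on average and held PU.1, AP-1 and RUNX matches at higher shares than promoters at large. A promoter window here is 300 bases, 250 before and 50 after a start, and 94 windows of 86 genes were overlapped by a region over at least 150 bases. They held 5.23 CpG on average, against 12.4 over all 32851 windows and 20.8 over the 15675 windows overlapped by regions of every library. The like sets were also low, at 4.43 for both diet times only and 5.89 for 1W HFD only. The share of windows with 3 or fewer CpG was 35.1%, against 31.4% of all windows. PU.1 (GAGGAAGT, either strand) matched 15 of 94 windows (15.96%), against 3.202% of all windows and 2.67% of those open in every library. AP-1 (TGANTCA) matched 17.02% against 7.81%, and RUNX (TGTGGTT) 11.7% against 5.27%. CEBP (TTGCNNAA) matched 10.6% against 10.8%, and the general ETS sequence CCGGAAGT 3.19% against 3.89%. In the 53 windows of both diet times only, PU.1 matched 5.66% and AP-1 and RUNX 11.3% each. In the 18 windows of 1W HFD only, PU.1 matched 5.56% and AP-1 and RUNX 11.1% each. The search covered 16 motifs, and CAGCTG, an E-box, matched the largest share of the 94 windows. It matched 20.2% of them, 16.3% of all windows and 28.3% of those of both diet times only. Windows of neighbouring starts share sequence, and these are counts of letters in a window, with no test. The sequence of regions away from promoters was not analysed here.

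**Figure D3:**
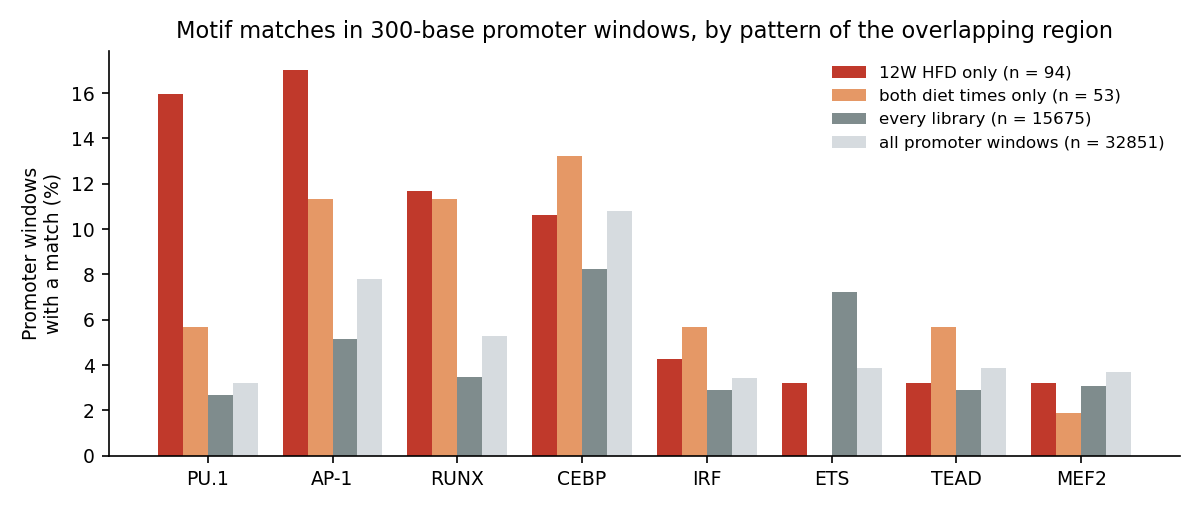
Bars give the percent of promoter windows with at least 1 match to a motif (y axis). The x axis has 8 of the 16 motifs searched, with bars by the pattern of the region that overlaps the window. PU.1 stands at 15.96% in windows of 12W HFD only and at 3.202% in all windows.

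The next comparison asked whether genes near the regions changed in RNA, which the rule did not use. Each region was assigned to the nearest listed start within 100 kb, which gave 1839 regions at 1463 genes. Levels are in TPM as deposited, a unit scaled for transcript length and library size, and changes are in log2(TPM + 1) from limma, with Benjamini-Hochberg adjustment over all 15659 genes tested and a threshold of 0.05. A gene was tested where at least 2 of the 29 libraries reached 1 TPM, which 1228 of the 1463 genes did, 38 of them only through 12W HFD libraries. All comparisons of WT below share the 12W HFD libraries.

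At 12W HFD against 3W, 238 of the 1228 tested genes (19.4%) were higher and 45 (3.66%) lower, where over all genes tested 7.94% were higher and 6.23% lower. The share of higher genes was smaller at greater distance, with 47 of 58 (81.0%) for genes with a region within 1 kb of the start, 63 of 265 (23.8%) for genes whose nearest region lay at 1 to 10 kb, and 128 of 905 (14.1%) at 10 to 100 kb. None of the 58 was lower by limma (6.23% of all genes were), and 1 was at an unadjusted p below 0.05, while 2 of the 65 genes of that class were listed at 0 in every library and 7 of the 58 passed the filter only through 12W HFD libraries. The class within 1 kb was singled out after its values were seen. The higher share near the start was not particular to this set, since the share within 1 kb was 52.9% for both diet times only (9 of 17), 54.8% for both 12W HFD lists and 1 other (17 of 31), and 46.3% (19 of 41) and 52.5% (21 of 40) for 12W HFD replicate 1 or 2 alone, and it was 5.41% for regions of every library. These differences were not tested. Within 100 kb, genes near regions of both diet times only were higher in 99 of 677 (14.6%) and genes near regions of 1W HFD only in 34 of 540 (6.30%). Genes near regions found in 1 of the 12W HFD lists alone were higher in 256 of 1948 (13.1%) for replicate 1 and 270 of 1955 (13.8%) for replicate 2.

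At 12W HFD against 1W HFD, 114 of 1228 (9.28%) were higher and 24 lower, against 3.54% and 2.39% of all genes. For genes with a region within 1 kb limma gave 30 of 58 higher and 0 lower (3 lower at an unadjusted p below 0.05). The lower count of 24 fell to 14 without 12W HFD replicate 1 or replicate 3 and to 15 without 1W HFD replicate 3. Against 6M, 26 of 1228 were higher (0.702% of all genes were) and 0 lower by limma (0.179% of all genes, and 19 of the 1228 at an unadjusted p below 0.05), with a median change of 0.39 where the median of all genes was itself 0.22. The class within 1 kb had 4 of 58 higher, which was 8 without 12W HFD replicate 2, 6 without replicate 5, 7 without 6M replicate 1 and 0 without 6M replicate 2. The count of 26 was 15 without 12W HFD replicate 1, 43 without replicate 2, 17 without replicate 4 and 14 without 6M replicate 2, and both counts were 0 when the 2 groups were fitted alone. In KO cells, which share no library with the WT comparisons, 114 of 1228 genes were higher at 12W HFD than at 3W and 14 lower, against 3.19% and 1.96% of all genes. For genes with a region within 1 kb it was 26 of 58. Without KO 12W HFD replicate 2 these counts were 47 of 1225 and 10 of 58, and the lower count was 9 without replicate 1 and 5 without replicate 2. Of the 56 named genes tested for a difference between the WT and the KO change none passed (limma, lowest adjusted p = 1, 7 with an unadjusted p below 0.05). The titles pair KO 3W with WT 3W libraries, and with these pairs as a block the count was again 0 (lowest adjusted p = 1, 8 with an unadjusted p below 0.05).

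**Figure D4:**
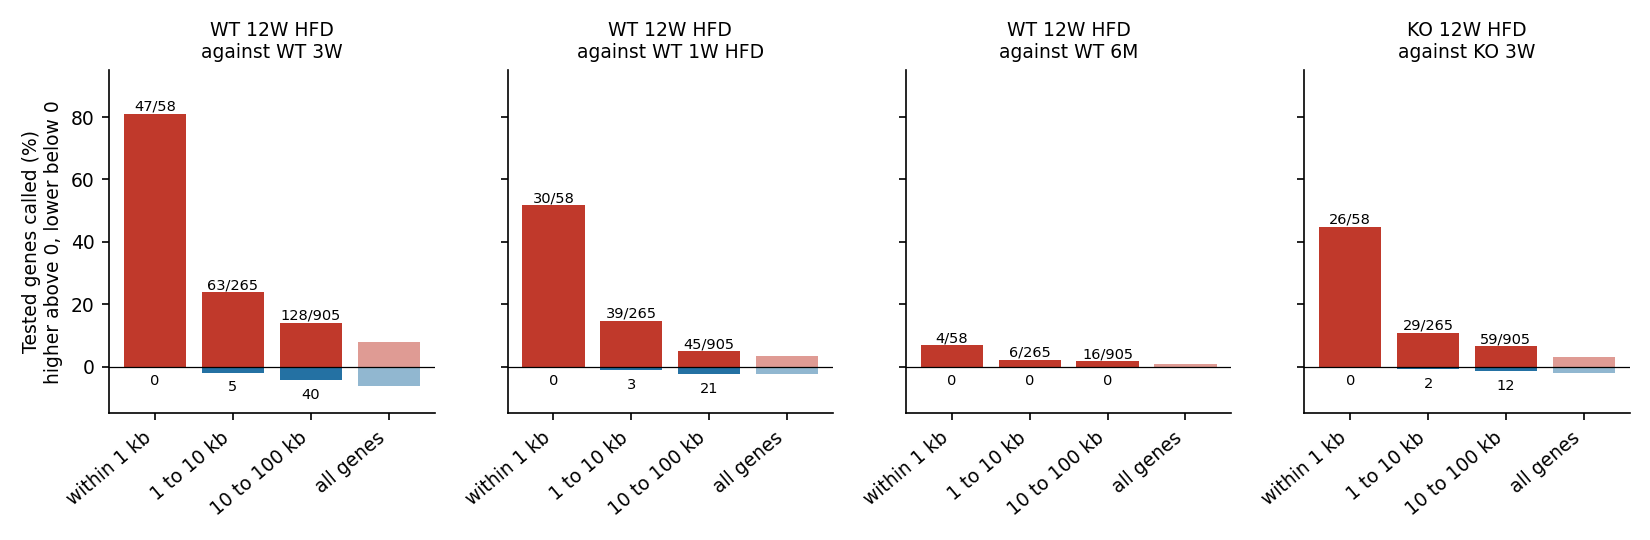
Bars give the percent of tested genes called higher (above 0) or lower (below 0) by limma in 4 comparisons, for genes in 3 classes of distance to their nearest 12W HFD region and for all genes tested, with counts printed. The class within 1 kb stands highest in each panel, at 47 of 58 for 12W HFD against 3W and at 4 of 58 against 6M.

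The 65 genes with a region at the start were detected in larger number in the 12W HFD libraries than in the 3W libraries. At least 1 TPM was reached by 13 to 24 of them in WT 3W libraries, by 25 to 38 at 1W HFD, by 48 to 54 at 12W HFD, and by 37 and 46 at 6M. In KO cells the numbers were 15 to 27 at 3W, 35 and 38 at 1W HFD, and 47 and 54 at 12W HFD. Over all 16678 genes with a listed start the numbers were 8527 to 9612 at WT 3W and 9294 to 9547 at WT 12W HFD. These are bulk libraries, in which more cells of a type and more RNA per cell cannot be told apart.

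Markers of macrophages and lymphocytes were higher in the groups where these genes were higher. The summed TPM of 12 macrophage markers was 38.2 to 114.6 in WT 3W libraries, 256.5 to 389.5 at 1W HFD, 2628 to 5502 at 12W HFD, 1308 and 3316 at 6M, and 2018 and 6186 at KO 12W HFD, and all 12 were higher at WT 12W HFD than at 3W. The 9 lymphocyte markers summed to 0.22 to 8.86 TPM at WT 3W, where 2 of them were at 0 in every library, and to 30.2 to 196.7 TPM at 12W HFD. The 7 markers of fibroblasts and the Tcf21 lineage summed to 27270 to 51840 TPM at WT 3W and 27000 to 43360 TPM at 12W HFD, a sum to which Dcn contributed most on average. Of these 7, 0 were higher by limma and 3 were lower at 12W HFD: Tcf21 and the collagens Col1a1 (-1.96 ± 0.44, limma adjusted p = 0.00196) and Col3a1 (-1.16 ± 0.30, limma adjusted p = 0.0071). Mural markers (4 genes) had 0 higher and 2 lower, with a median sum of 470 TPM at WT 3W and 106.5 TPM at 12W HFD. Mesothelial markers (5 genes) had 0 higher and 0 lower, adipocyte markers (4 genes) 1 and 1, and endothelial markers (7 genes) 2 and 0. Over all genes tested 7.94% were higher and 6.23% lower. Ptprc, the common leukocyte antigen CD45, had a region 16.8 kb upstream and read 40.6, 46.4, 51.3, 38.4 and 18.1 TPM at 12W HFD against 0 to 1.00 TPM at 3W. Of 8 macrophage markers with a listed start, 2 and 4 had a peak there in the 12W HFD lists and 1 or 2 in each other list. The part of these cells in the results was not tested.

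Several genes with a region at the start encode receptors and signalling proteins of leukocytes. The strongest such region was chr1:171018727-171020522 at Fcgr4, whose promoter is printed above, with a fold of 14.4 and 11.7. Fcgr4 read 17.6, 6.35, 5.79, 3.41 and 2.08 TPM in the 5 WT 12W HFD libraries and 0 in 6 of 7 WT 3W libraries, the last at 1.24 TPM. The groups did not overlap, and the change was 2.56 ± 0.41 (SE; limma adjusted p = 3.34e-05).

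The complement anaphylatoxin receptors C5ar1, C3ar1 and C5ar2 each had a region at the start. C5ar1, the receptor for C5a (region chr7:16257949-16259616, fold 4.92 and 3.75), read 53.6, 25.9, 34.4, 76.3 and 39.1 TPM at 12W HFD, against 0.04 to 1.41 TPM (median 0.35) at 3W. Its 4 libraries at 1W HFD read 1.79, 6.08, 4.79 and 7.16 TPM, between the other groups, and those at 6M 28.3 and 13.9 TPM. C5ar1 rose by 4.93 ± 0.39 from 3W (limma adjusted p = 2.13e-10) and 2.99 ± 0.45 from 1W HFD (limma adjusted p = 4.6e-05). C3ar1 (region chr6:122855312-122856399, fold 4.59 and 3.05) read 57.5, 20.3, 42.3, 81.1 and 21.6 TPM at 12W HFD and 0 to 1.19 TPM at 3W, a rise of 4.76 ± 0.36 (limma adjusted p = 9.58e-11). C5ar2, the second receptor for C5a, had a region of fold 2.95 and 4.45 (chr7:16243746-16245017) and did not pass. It read 2.00, 0.06, 0.07, 1.86 and 0.61 TPM at 12W HFD and 0 to 0.72 TPM at 3W, so the groups overlapped (0.68 ± 0.27, limma adjusted p = 0.0916). In KO cells C3ar1 read 19.15 and 41.99 TPM at 12W HFD and 0.33 to 1.26 TPM at 3W.

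Hpgds was 1 of 4 genes of the class also higher than at 6M. Its region (chr6:65144513-65145439, fold 4.92 and 3.05) covers all 250 bases of the promoter printed above. Hpgds read 42.4, 25.5, 46.2, 61.7 and 20.8 TPM at 12W HFD, 0 to 1.27 TPM at 3W, 0.37 to 1.54 TPM at 1W HFD, and 5.30 and 0.73 TPM at 6M, so the 12W HFD libraries stood above all of these. The rises were 4.73 ± 0.37 from 3W, 4.15 ± 0.42 from 1W HFD and 3.51 ± 0.53 from 6M (limma adjusted p = 1.82e-10, 1.88e-07 and 0.00113). The CD300 receptors Cd300a and Cd300lb, which signal in myeloid cells, also passed against 6M (2.23 ± 0.47 and 2.13 ± 0.44, limma adjusted p = 0.0195 and 0.0157). Cd300lb had a region at its start that was among the weakest (fold 3.61 and 2.34). The 6M group has 2 libraries, and no call against it in this class held when the 2 groups were fitted alone.

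Further leukocyte genes of the class were also higher at 12W HFD than at 3W. Those that drive cell movement and signalling were Dock2 (3.15 ± 0.32), Vav1 (2.70 ± 0.32), Plek (2.88 ± 0.43) and Arhgap25 (4.26 ± 0.47), with changes from 3W to 12W HFD at a limma adjusted p of 1.33e-05 or less. Surface and secreted proteins were Clec4a2 (4.54 ± 0.53, a lectin receptor with close paralogs that may share its reads), Ly86 (4.12 ± 0.45), Nrros (4.55 ± 0.55) and the chemokine Ccl3 (3.25 ± 0.56), with limma adjusted p of 9.39e-05 or less. Dock2 and Vav1 were at 0 in all 7 WT 3W libraries. Tbxas1 rose by 3.74 ± 0.45, from 0 to 3.00 TPM at 3W to 13.9 to 39.1 TPM at 12W HFD (limma adjusted p = 3.98e-07). Cxcl9, a chemokine induced by interferon gamma, read 92.6 TPM in 12W HFD replicate 1 and 3.76 to 9.05 TPM in the other 4, and rose by 2.70 ± 0.55 (limma adjusted p = 0.000798). Bcl2a1b had the largest change in the class, 5.38 ± 0.39 (limma adjusted p = 4.78e-11), but it has near-identical paralogs and its reads may be shared with them.

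A region at the start did not always go with higher RNA. Pls3, an actin-bundling protein of many cell types, had a region at its start (chrX:75842441-75843679, fold 4.92 and 4.22) and read 132 to 179 TPM at 12W HFD and 131 to 231 TPM at 3W, a change of -0.10 ± 0.17 (limma adjusted p = 0.766). Sun1, of the inner nuclear membrane, read 17.5 to 37.4 TPM at 12W HFD and 26.2 to 67.1 TPM at 3W, a change of -0.57 ± 0.23 (limma adjusted p = 0.103). The groups overlapped for both. These 2 were among the 11 tested genes of the class that did not pass.

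**Figure D5:**
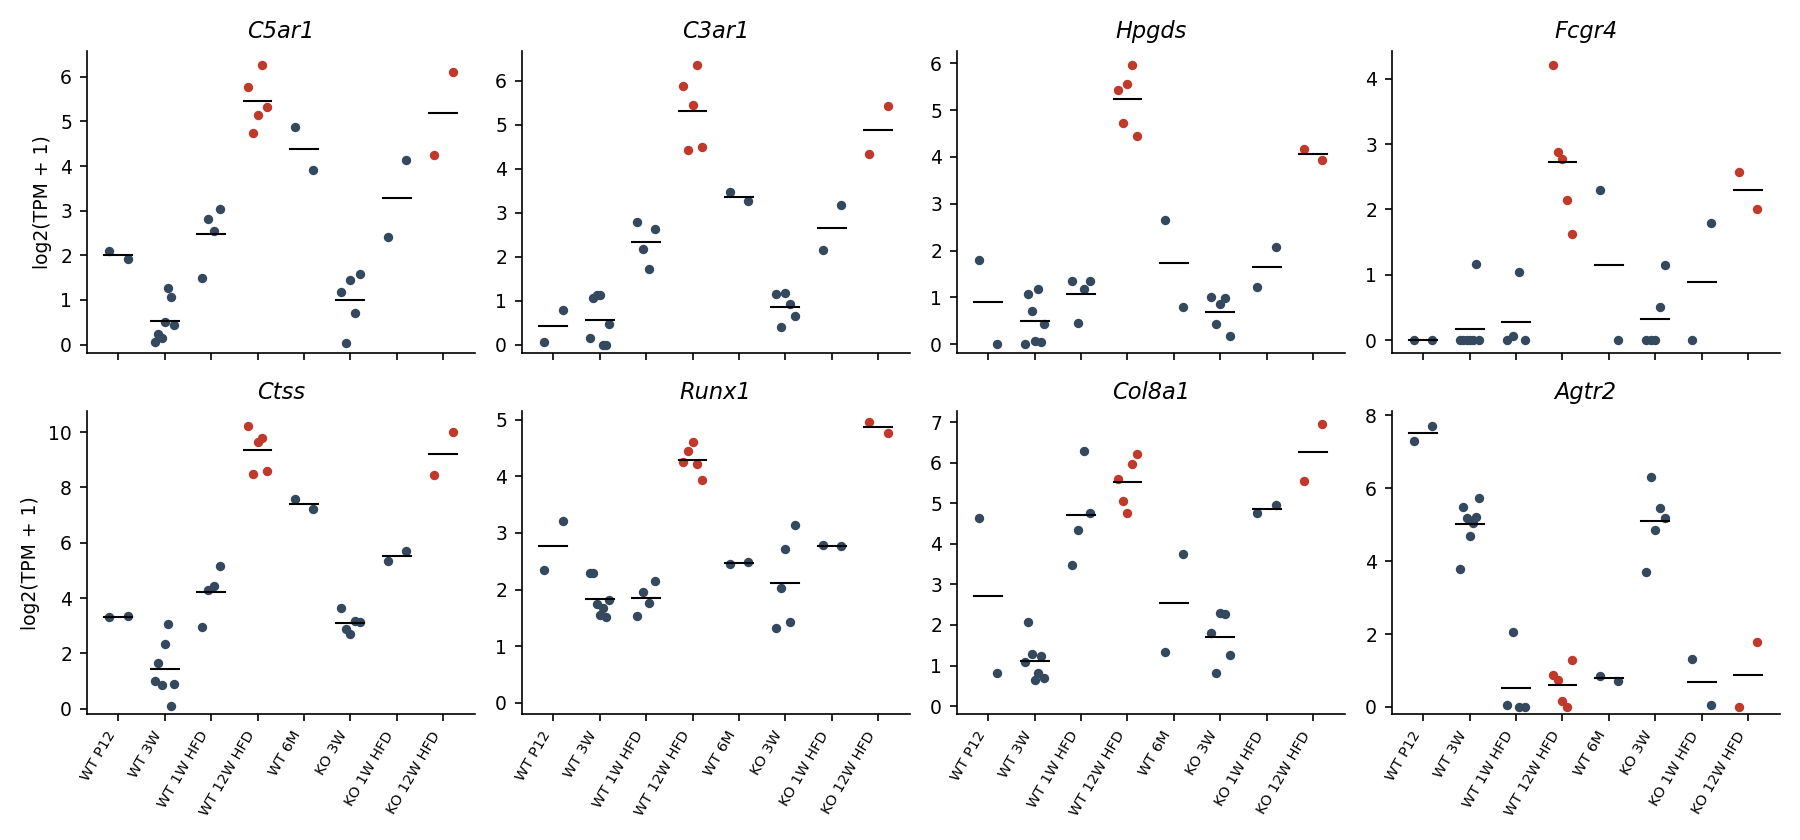
Points give log2(TPM + 1) of 8 genes in each of the 29 RNA-seq libraries by group, with 12W HFD libraries in red and a line at the group mean. C5ar1, C3ar1, Hpgds, Fcgr4, Ctss and Runx1 are highest in the 12W HFD groups, Col8a1 is high at both diet times, and Agtr2 is high at P12 and 3W.

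Among all assigned genes, the largest rises belonged to genes known from macrophages and other leukocytes. Rises of such genes were not particular to genes with a region. All 12 macrophage markers were higher from 3W, while 8 had a listed start and 2 a region. All 7 MHC class II genes were higher too, while 4 had a listed start and none a region. Of the 8 assigned genes with the largest rises, 7 had the summits of their regions more than 1 kb from the start. The region of Cd53 (chr3:106787959-106790562) still covered its start, with the summit 1.77 kb away. Ctss, a lysosomal cysteine protease, had a region 2.99 kb upstream (chr3:95523363-95524755, fold 6.23 and 3.98) and read 1208, 355, 788, 888 and 383 TPM at 12W HFD against 0.08 to 7.32 TPM at 3W, a rise of 7.93 ± 0.42 (limma adjusted p = 1.31e-13). Lgals3, the lectin galectin-3, had 3 regions 11.9 to 24.7 kb upstream and rose by 6.29 ± 0.36, and Lcp1, the leukocyte plastin, had 3 regions within its gene and rose by 6.16 ± 0.40 (limma adjusted p = 7.63e-13 and 6.17e-12). Others were Cd53, a leukocyte tetraspanin (6.07 ± 0.47), Lilr4b, an inhibitory immunoglobulin-like receptor (5.96 ± 0.41), Spp1, osteopontin (5.85 ± 0.63), and Ccl8, a monocyte chemokine (5.33 ± 0.58), each with a limma adjusted p of 7.67e-08 or less. Spp1 was uneven among 12W HFD libraries, at 738, 19.5, 85.1, 134 and 282 TPM, while Ccl8 read 118 to 540 TPM there and 1460 and 226 TPM at 6M, so these 2 groups overlapped (-1.29 ± 0.83, limma adjusted p = 0.521). Lgals3 (2.79 ± 0.52) and Spp1 (3.80 ± 0.91) also passed against 6M (limma adjusted p = 0.00688 and 0.0355), while Ctss did not (1.96 ± 0.59, limma adjusted p = 0.105). The calls of Lgals3 and Spp1 against 6M were lost when the 2 groups were fitted alone.

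Runx1, a transcription factor of blood development that is also active in stromal cells, had the most regions of any gene. Its 10 regions, of 53 union regions assigned to it, lay from 24.4 kb to 79.6 kb from its starts, 7 within the gene and 3 upstream, and the strongest was chr16:92796080-92797277 (fold 6.88 and 7.03). Runx1 read 18.2, 20.9, 23.5, 17.5 and 14.2 TPM at 12W HFD, 1.85 to 3.88 TPM at 3W, 1.89 to 3.42 TPM at 1W HFD and 4.46 and 4.58 TPM at 6M. The 12W HFD libraries stood above all of these, with a rise of 2.45 ± 0.29 from 3W and 1.83 ± 0.42 from 6M (limma adjusted p = 3.44e-07 and 0.0284). The call against 6M was lost when the 2 groups were fitted alone. In KO cells Runx1 read 30.2 and 26.2 TPM at 12W HFD and 1.49 to 7.79 TPM at 3W. Foxp1 and Myo10, each with 6 regions (of 77 and 24 union regions), did not pass (0.22 ± 0.25 and 0.11 ± 0.29, limma adjusted p = 0.644 and 0.857). Rgs13, a regulator of G-protein signalling, also had 6 regions, of 10 union regions, a larger share than Runx1 had. It was at 0 in all WT 3W libraries and read 0 to 2.17 TPM at 12W HFD (limma adjusted p = 0.0991). Tns3 had 5 regions (of 36 union regions) and a change of 0.52 ± 0.29 (limma adjusted p = 0.257). Otos had 5 (of 14) and read at most 0.18 TPM in WT 3W and 12W HFD libraries. Gpr39 had 5 regions (of 20 union regions) and a change of 1.56 ± 0.52 (limma adjusted p = 0.0435). That call was lost in 11 alternatives, among them leaving out any 1 of 12W HFD replicates 1 to 4, with limma adjusted p of 0.0528 to 0.182.

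The 10 strongest regions were not those at the genes that rose most, though the one at Fcgr4, described above as higher, was among them. The first by the smaller of its 2 fold values lay within Anxa11, an annexin (chr14:25860674-25862574, fold 19.3 and 15.9), which read 12.6 to 50.6 TPM at 12W HFD and 10.4 to 66.4 TPM at 3W (0.11 ± 0.37, limma adjusted p = 0.895). The next within 100 kb of a start lay 13.4 kb from Mtf2 (fold 16.1 and 15.7) and within Tulp4 (fold 17.4 and 14.3), which changed by 0.32 ± 0.27 (limma adjusted p = 0.517). Another lay within Ces1a, a carboxylesterase (chr8:93030248-93031648, fold 14.8 and 12.9). Ces1a was at 0 in every WT 3W, 1W HFD and 6M library and read 2.45, 0.62, 0.49, 0 and 4.87 TPM at 12W HFD and 2.32 and 3.73 TPM at KO 12W HFD. It passed the filter on low values only through 12W HFD libraries, so no test is given. One region 63.6 kb from Cdh26, an epithelial cadherin, had fold values of 12.8 and 13.8, and Cdh26 itself read 3.13, 1.07, 1.13, 0 and 1.42 TPM at 12W HFD and 0 to 1.02 TPM at 3W, where the groups overlapped. Outside 12W HFD it reached 1 TPM in 1 library, so Cdh26 too passed the filter only through 12W HFD libraries and no test is given. A further one lay within Mrtfb (fold 12.5 and 11.7), which changed by 0.51 ± 0.31 (limma adjusted p = 0.322), and one within Lrba, 8.99 kb from the start of Mab21l2 (fold 11.1 and 16.4). Of the 10 strongest, 2 lay beyond 100 kb of a start, 234 kb from Inhba and 299 kb from Tbc1d5. Over all regions within 100 kb of a start, the share of genes higher from 3W was larger with stronger regions. It was 18.3% for a smaller fold under 3.5, 22.4% for 3.5 to 5 and 25% for 5 or more, against 7.94% of all genes tested. This difference was not tested.

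Genes that fell also had regions, though fewer. Agtr2, the type 2 angiotensin receptor, had a region 38.03 kb downstream of its start and read 0.82, 0.66, 0.11, 0 and 1.45 TPM at 12W HFD against 12.9 to 52.1 TPM at 3W, a change of -4.42 ± 0.44 (limma adjusted p = 1.33e-08). It read 0 to 3.19 TPM at 1W HFD and 0.81 and 0.64 TPM at 6M. Gabra3, a GABA receptor subunit (-3.55 ± 0.72), Ecrg4, a secreted peptide precursor (-3.35 ± 0.43), and Capn6, a calpain-like protein (-3.14 ± 0.38), also fell from 3W to 12W HFD (limma adjusted p = 0.000763, 1.22e-06 and 4.95e-07). The Ecrg4 region (fold 2.95 and 2.81) was among the weaker ones.

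Stromal and inflammatory lists gave a mixed picture, beside 1463 genes with a region of all 16678 with a listed start. Of 28 collagen and matrix genes, 19 had a listed start and 5 of these had a region. Of the 5, 3 were higher at 12W HFD than at 3W. Of the 28 themselves 5 were higher and 7 lower, where over all genes tested 7.94% were higher and 6.23% lower. Col8a1, a short-chain collagen, had 4 regions and read 47.0, 32.0, 26.1, 61.7 and 72.9 TPM at 12W HFD, 0.57 to 3.17 TPM at 3W and 10.1 to 76.8 TPM at 1W HFD. It rose by 4.40 ± 0.52 from 3W (limma adjusted p = 3.31e-07) and overlapped with 1W HFD (0.80 ± 0.60, limma adjusted p = 0.542). Tnc, tenascin C, rose by 1.96 ± 0.54 from 3W and 2.64 ± 0.62 from 1W HFD (limma adjusted p = 0.0116 and 0.00677).

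Of 14 NF-kB and cytokine genes 4 were higher from 3W, where 7.94% of all genes tested were. A listed start was held by 12 of the 14, and 4 of these had a region. None of the 4 genes with a region was higher. A strong region lay 3.27 kb from a start of Il33, an alarmin made by stromal cells (chr19:29941970-29943202, fold 8.52 and 10.8), and Il33 read 376, 130, 148, 128 and 185 TPM at 12W HFD against 111 to 480 TPM at 3W (-0.20 ± 0.35, limma adjusted p = 0.78). In KO cells it read 701 and 595 TPM at 12W HFD and 156 to 345 TPM at 3W, a rise of 1.76 ± 0.50 (limma adjusted p = 0.0352). The KO call was lost with replicate numbers as a block. The difference between the WT and the KO change passed for no named gene by limma, Il33 among them. Tnfaip3, an inhibitor of NF-kB, changed by 1.02 ± 0.42 (limma adjusted p = 0.106).

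Of 21 chemokines 15 were higher from 3W, where 7.94% of all genes tested were. A listed start was held by 13 of the 21, and 5 of these had a region. Of the 5, 4 were higher, among them Cxcl14 (2.15 ± 0.59, limma adjusted p = 0.012). As most of the list was higher, these 4 are not read as a result about the regions. Of 14 lysosomal genes 10 were likewise higher. A listed start was held by 10 of the 14, and 4 of these had a region. Of the 4, 3 were higher, such as the acid lipase Lipa (1.90 ± 0.25) and the protease Ctsd (1.40 ± 0.28, limma adjusted p = 1.38e-06 and 0.000709). The fatty acid transporter Cd36 had 2 regions and rose by 3.01 ± 0.50 from 3W and 3.16 ± 0.71 from 6M (limma adjusted p = 5.76e-05 and 0.0259). Its call against 6M was lost when the 2 groups were fitted alone. Pparg, the master factor of adipocyte formation, had a region within the gene (fold 4.26 and 3.98) and read 21.9 to 55.4 TPM at 12W HFD and 10.5 to 80.5 TPM at 3W (0.45 ± 0.41, limma adjusted p = 0.548). No region was assigned to a gene of the endothelial, adipocyte, MHC class II, interferon or positional transcription factor lists. In these lists 4 of 7, 4 of 4, 4 of 7, 10 of 13 and 10 of 18 genes had a listed start. A gene without one could not be assigned a region, and the lists are small, so this is not read as a lack of regions.

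Tcf21 itself, as a check of the labels, read 13.5, 10.2, 5.86, 7.13 and 10.1 TPM in WT 12W HFD libraries, 37.6 to 109.2 TPM at WT 3W, 20.01 to 60.9 TPM at KO 3W and 5.67 and 1.64 TPM at KO 12W HFD. The KO and WT levels at 3W overlap, so the level alone does not tell a KO library from a WT one. No region was assigned to Tcf21. Of the 7 markers of fibroblasts and the Tcf21 lineage, 4 had a listed start, and a gene without one could not be assigned a region.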

How the data were processed

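ATAC-seq peaks (9 libraries) and RNA-seq levels (29 libraries) were used as deposited, on mm10. Per the submitters' processing notes, the tools were STAR 2.5.3a, RSEM, Trim Galore 0.6, FastQC, Bowtie2 2.3 and MACS2; their roles are not given in the sources used here. The authors deposited 1 peak list per library with a fold enrichment (a ratio over local background), −log10 p and q values, a score and a summit for each peak. The RNA levels are TPM as deposited by the authors, with sums of 918008 to 969385 per library and 10894 to 12825 genes at 1 TPM or more. Read depth is unknown.

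Peaks overlapping by at least 1 bp were merged in Python 3.11.15. Summits were assigned to the nearest RefSeq start (GRCm38.p6, 20327 starts of 16678 genes) within 100 kb. Summits inside genes were found with bedtools 2.31.1. The start table is not complete. limma 3.58.1 in R 4.3.3 was fitted to log2(TPM + 1) over 8 groups and 15659 of 25746 genes (at least 1 TPM in at least 2 libraries), with a trend in the variance and Benjamini-Hochberg adjustment at 0.05. A pseudocount understates the change of low genes. The procedure was tested on simulated data. Replicate numbers were not used as a block. The titles pair each KO 3W library with 1 or 2 WT 3W libraries; deviations of paired libraries correlated at 0.18 to 0.48 in 5 pairings and at -0.13 in the other, and the pairs enter only an alternative fit of the WT and KO difference, added after the data were seen.

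The regions and the 27 gene lists were chosen with earlier results of these data known. The naming rule took the 10 regions strongest in both lists, up to 3 regions per gene list, the 8 largest rises and 4 largest falls among assigned genes, and the 5 genes with most regions. Of the genes from the lists only some are described, a choice made after their values were seen. Genes with a region within 1 kb were added after values were seen. Alternatives were other thresholds, pseudocounts, filters, scalings, distances and fits, and leaving out each library.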

Additional observations from a re-analysis of the deposited data

Results flagged for a closer look

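Of 214 groups of 4 to 10 libraries checked over the named genes, 20 had 1 library far from the rest, and chance alone gives about 1 in 20. In the WT 12W HFD group, replicate 1 read 92.62 TPM of Cxcl9 where the others read 3.76 to 9.05 TPM. Replicate 5 of that group read 20.57 TPM of Clec4a2 (others 49.45 to 65.47 TPM) and 18.09 TPM of Ptprc (others 38.41 to 51.31 TPM), so 2 leukocyte genes were low in the same library. Replicate 2 read 0.18 TPM of Otos (others 0).

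Among WT 3W libraries, replicate 6 read 1.24 TPM of Fcgr4 (others 0) and 1.26 TPM of Bcl2a1b (others 0 to 0.37 TPM). Replicate 3 read 31.23 TPM of Capn6 (others 8.16 to 13.05 TPM), and replicate 1 read 0.07 TPM of Tnc (others 3.24 to 9.19 TPM) and 0.72 TPM of C5ar2 (others 0 to 0.03 TPM).

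Among WT 1W HFD libraries, replicate 1 read 0.0 TPM of Ly86 (others 3.72 to 4.31 TPM) and 2.51 TPM of Cd53 (others 5.85 to 6.33 TPM). Replicate 2 read 1.46 TPM of Vav1 (others 0) and 3.19 TPM of Agtr2 (others 0 to 0.03 TPM). Replicate 3 read 1.07 TPM of Fcgr4 (others 0 to 0.05 TPM) and 0.96 TPM of Cdh26 (others 0 to 0.1 TPM).

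Among KO 3W libraries, replicate 1 read 1.89 TPM of Vav1 (others 0 to 0.03 TPM) and 9.45 TPM of Lcp1 (others 2.89 to 3.8 TPM). Replicate 2 read 345 TPM of Il33 (others 156.2 to 182.6 TPM), replicate 3 read 0.92 TPM of Cd300lb (others 0), and replicate 5 read 132.4 TPM of Gabra3 (others 16.05 to 22.49 TPM).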

How the results depend on the processing

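The number of regions depended on the peak threshold: 1012 with a −log10 q of at least 5 in the 12W HFD lists alone and 1317 with lists of equal length. Leaving out 1 library gave 3035 to 8564, with 8564 without 12W HFD replicate 1 and 7884 without replicate 2. For 12W HFD against 3W, genes within 10 kb were higher in 34.1% and lower in 1.55%; leaving out 1 library gave 16.7% to 20.05% higher and 2.77% to 4.15% lower, and 72.4% to 81.0% higher and 0 to 1.72% lower within 1 kb (1.72% without 12W HFD replicate 4).

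Against 1W HFD, genes within 10 kb were 21.4% higher and 0.929% lower, the replicate block gave 3.42% higher and 0.244% lower (22.4% higher within 1 kb), and no filter gave 1.16% lower. Leaving out 1 library gave 7.09% to 8.89% higher (44.8% to 51.7% within 1 kb) and 1.14% to 2.61% lower. Against 6M, at least 5 TPM gave 3.34% higher and 0.0983% lower, quantile scaling 1.06% and 0.0814%, no filter 0.0722% lower, and the compared groups alone and the replicate block 0 higher. Leaving out 1 library gave 1.14% to 3.51% higher and 0 to 0.163% lower. Within 1 kb the share against 6M was 1.72% with a pseudocount of 0.1, 14.3% at 5 TPM, 0 with the groups alone and under the block, and 0 to 13.8% without 1 library. In KO, the replicate block gave 0 higher and 0 lower (also within 1 kb), genes within 10 kb 17.0% and 0.619%, and the groups alone 0.651% lower. Leaving out 1 library gave 3.84% to 9.94% higher, 0.408% to 1.47% lower and 17.2% to 48.3% higher within 1 kb. The cause was not tested.

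Within these 4 comparisons replicate numbers are shared only as numbers (correlations of -0.10 to 0.21 between same-numbered libraries). Single genes were checked for WT 12W HFD against WT 3W alone. Anxa11 ran from -0.12 (without 12W HFD replicate 4) to 0.36 (without 12W HFD replicate 2), with -0.07 without 3W replicate 2. Il33 ran from -0.47 (without 12W HFD replicate 1) to 0.0036 (without 3W replicate 3). Otos ran from 0 (without 12W HFD replicate 2) to 0.0597. Calls by limma were lost for Gpr39 (adjusted p up to 0.182), and under the block for Cxcl14 (0.169) and Cxcl9 (0.0666). They were gained for Sun1 (0.0479), Tnfaip3 (0.0471), C5ar2 (0.039 to 0.0435, in 3 alternatives) and Rgs13 (0.0452 to 0.0481, in 2), all by limma. Cdh26 and Ces1a, which passed the filter only through 12W HFD libraries, are left out. Calls of single genes against 1W HFD, against 6M or in KO were not checked gene by gene. As the counts above were 0, every call of an assigned gene against 6M was lost with the groups alone and under the block. Every such call in KO was lost under the block. Longer windows or whole regions for the motif search were not run.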
